A study of Homo sapiens with 22 samples.

Results

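Dense clusters of estrogen receptor alpha (ESR1) sites are stretches of the genome in which many separate binding sites lie close together. Peaks of 20 chromatin immunoprecipitation sequencing (ChIP-seq) lists on chromosomes 1 to 22 and X were merged where they overlapped by at least 1 bp, which gave 93599 regions. Of these, 37120 had a peak in at least 3 lists and were kept. Kept regions less than 12.5 kb apart were chained, and a chain of at least 5 regions was called a cluster. There were 1183 clusters with 10626 member regions, 28.6% of the kept regions. The other 26494 kept regions served for comparison. The members were thus chosen by the presence and position of peaks in these lists, so their number and spacing are descriptions and carry no test.

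The cells were clones of Ishikawa, an endometrial adenocarcinoma line, in which ESR1 carried a FLAG epitope tag and was either wild type or had the D538G substitution. All clones had been deprived of hormones for at least 5 days and then received 10 nM estradiol (E2) or the solvent DMSO at 0.1% for 1 h, after which the tagged receptor was precipitated with an anti-FLAG antibody. Wild-type cells gave 4 libraries with E2 and 4 with DMSO, from 2 clones with 2 replicates each. D538G cells gave 6 with E2 and 6 with DMSO, from 3 clones with 2 replicates each. Since the labels do not say whether replicates were separate cultures, p-values measure only the spread between these libraries, which may be technical. The genotypes were carried by different clones, so genotype and clone cannot be told apart beyond the spread among these few clones.

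ESR1 is a nuclear receptor that binds estrogen response elements in DNA, directly or through other factors, and mostly at enhancers far from promoters. Estradiol folds the last helix of the ligand-binding domain over the hormone, which opens the surface for coactivators. D538G lies beside that helix and is known from hormone-resistant breast cancer and from endometrial cancer as a change that gives the receptor activity without hormone. Clustered enhancers are groups of neighbouring elements, often bound by the same factors, that are commonly described by stitching nearby sites into a single domain.

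The lists differed widely in length, from 44 to 54895 peaks, and what share of this reflects sequencing depth is unknown. The wild-type DMSO lists held 50 and 29117 peaks for replicates 1 and 2 of clone 1, and 44 and 1080 peaks for those of clone 2. Clone 1 replicate 2 therefore stood far from the other libraries of its group. Peak names in 4 lists, replicate 1 of D538G clones 1 and 2 under both treatments, contain "Input" and those in the other 16 do not, so the control used in calling may differ between lists. The word "Ctl" stands in the peak names of 6 lists, of which 5 are labelled DMSO and 1, D538G clone 2 replicate 1, is labelled E2. That name goes against its label, so contrasts that use the library labelled D538G E2 clone 2 replicate 1 are also given without it. Lists of more than 25000 peaks numbered 6 and came from all 4 groups, but all of them were of replicate number 2. The longest list of replicate number 1 held 21869 peaks. Of the member regions, 3889 (36.6%) were bound in those 6 lists alone, against 25.1% of the other kept regions. Applied to the other 14 lists, the same rule kept 13695 regions and gave 219 clusters with 1423 members (10.4%). Of those 219 clusters, 212 overlapped a cluster of the whole series, while 207 of the 1183 clusters overlapped one of them. Without the wild-type DMSO clone 1 replicate 2 list there were 1091 clusters with 9635 regions.

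Most clusters were small, and a few were very large. The 37120 kept regions fell into 19913 loci, of which 13398 held a single region. The clusters held from 5 to 76 regions with a median of 7, and 321 held 10 or more and 69 held 20 or more. They spanned from 4457 to 253921 bp with a median of 29765 bp. Within a cluster, the regions themselves covered a median of 23.5% of the span, from 7.20% to 86.1%. The median gap between neighbours was 2151 bp, with quartiles of 598 and 5304 bp. The edge of the definition was gradual. There were 602 chains of 4 regions, just outside it, and 321 chains of 5, just inside it. Their median spans were 15166.5 and 20132 bp. The mean share of regions bound per list was 14.8% and 14.5% under wild-type DMSO, 46.5% and 45.8% under wild-type E2, 37.1% and 38.4% under D538G DMSO, and 35.9% and 37.2% under D538G E2.

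**Figure D1:**
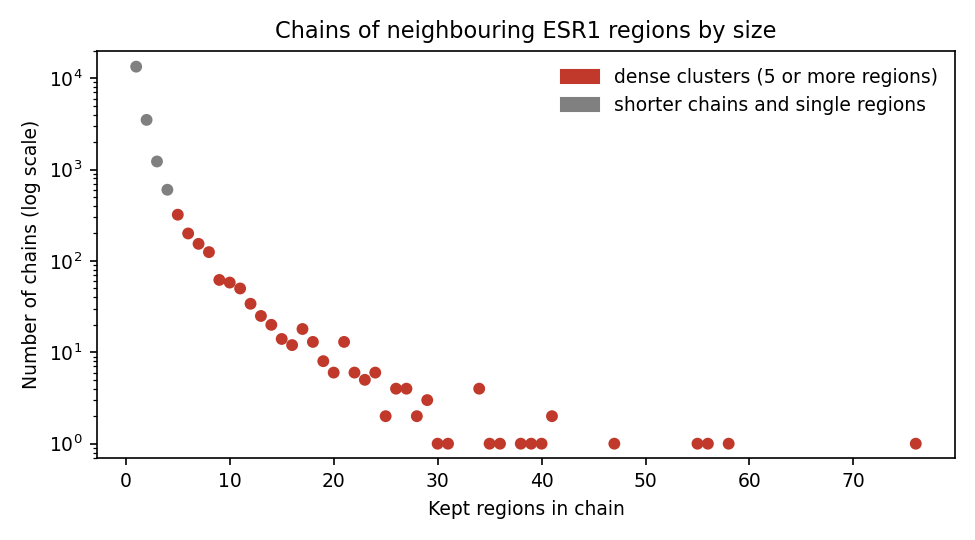
Number of chains (vertical axis, log scale) against the number of kept regions in a chain (horizontal axis), with clusters of at least 5 regions in red and shorter chains in grey. Chain numbers fall from 13398 single regions to 602 chains of 4 and 321 of 5, and the largest sizes, up to 76 regions, are rare and scattered.

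The largest cluster lay at chr19:703715-957635 (build hg19, as for all positions here) and was also the longest, at 253921 bp. It held 76 regions, of which 16 had a peak in 10 or more lists. The wild-type DMSO lists bound 0 and 40 of its regions in clone 1 and 0 and 6 in clone 2. The wild-type E2 lists bound 18 and 70 in clone 1 and 13 and 61 in clone 2. The D538G DMSO lists bound from 2 to 69 regions with a median of 20, and the D538G E2 lists from 4 to 60 with a median of 21. All 4 groups overlapped in this count. The next cluster on the chromosome, chr19:980260-1208333 with 58 regions, began 22.6 kb further on. It was the second largest. A further cluster of 34 regions at chr19:1221042-1326347 began 12708 bp after that, a gap just over the limit. A cluster of 41 regions followed at chr19:1340585-1528468. Within the leading cluster, binding was uneven: chr19:704127-705010 had a peak in 17 lists, namely all 4 with E2 and 2 of 4 with DMSO in wild type, and all 6 with E2 and 5 of 6 with DMSO in D538G. Its neighbour chr19:703715-704020 had one in 3 lists, 2 of them wild-type E2 and 1 of them D538G DMSO.

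**Figure D2:**
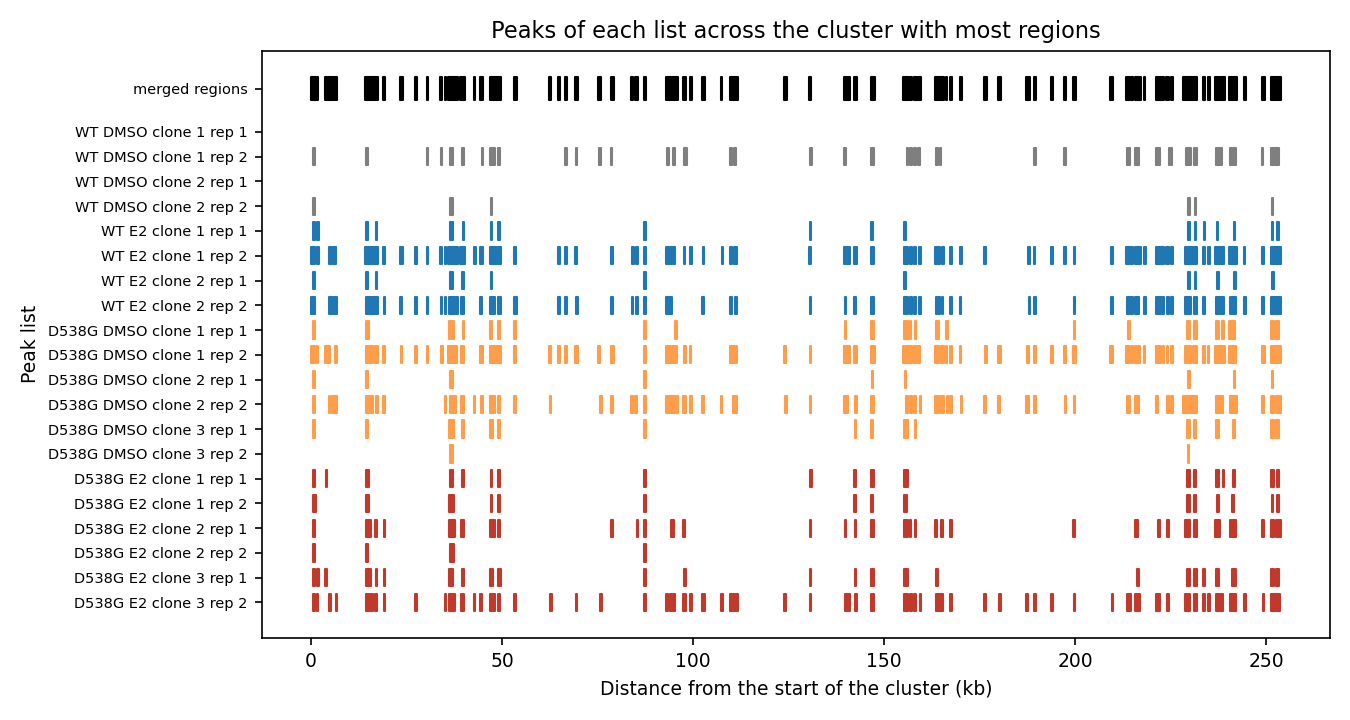
Regions bound along the largest cluster (horizontal axis, distance in kb from its first base), with a row for each of the 20 lists in group colours; peaks narrower than 0.4 kb are drawn at that width. Long lists fill most of the cluster, with 70 of 76 regions in the fullest wild-type E2 list, while the shortest lists keep a few of the same positions or none.

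The 10 clusters with the most regions lay on 5 chromosomes. Besides the 3 on chromosome 19, they were chr16:657800-858286 with 56 regions, chr11:762521-911924 with 47 and chr10:134182937-134307286 with 39. Another 4 lay on chromosome 9, at chr9:137198489-137349012 with 38 regions, chr9:138970437-139118810 with 41, chr9:139362241-139567249 with 55 and chr9:139834204-139982145 with 40. In each of these 10, the groups' ranges of regions bound overlapped. The cluster with the closest packing was small: chr6:99279405-99283861 held 5 regions in 4457 bp, or 11.2 per 10 kb against a median of 2.49 over all clusters. It had no peak in 12 of the 20 lists.

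Clusters were spread unevenly over the chromosomes. On chromosome 19, 1203 of 2449 kept regions (49.1%) lay in clusters, which numbered 125. The shares on chromosomes 16, 22 and 17 were 47.7%, 47.5% and 46.3%. The lowest were 2.68% on X (14 of 523 regions, in 2 clusters), 14.3% on chromosome 6, 15.3% on 13 and 15.6% on 18. Clusters were also common near chromosome ends, taking the last peak as the end. Within 5 Mb of either end lay 4538 members (42.7%), against 12.2% of the other kept regions. Of the 69 clusters with 20 or more regions, 52 (75.4%) lay there.

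**Figure D3:**
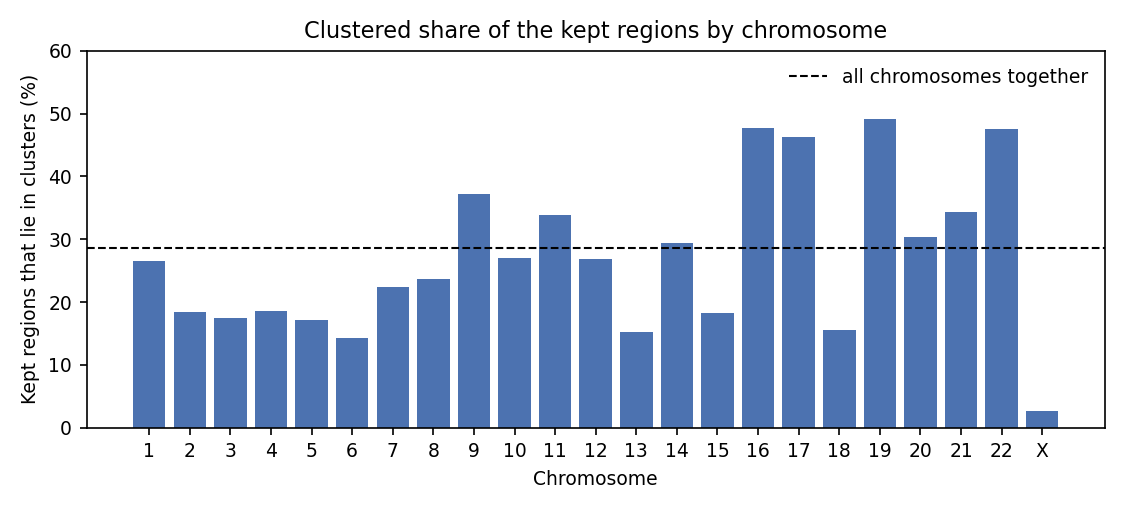
Share of kept regions that are cluster members, in percent, for each of the chromosomes 1 to 22 and X. Chromosome 19 is highest at 49.1% and X lowest at 2.68%, around 28.6% over all chromosomes.

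In each cluster the member with a peak in the most lists was taken as its leading region, with ties broken by mean signal percentile. The leading regions of the 1183 clusters had a peak in a median of 13 lists, from 4 to 20, and the other 9443 members in a median of 6. Their median widths were 1344 and 760 bp. Peaks were ranked within each list by the authors' signal value, as a percentile from 0 for the weakest to 100 for the strongest. The median percentile was 73.5 for leading regions and 49.2 for other members. All 4 wild-type E2 lists bound 610 leading regions (51.6%) but 9.0% of the other members. All 6 D538G DMSO lists bound 293 (24.8%) and 1.42%, and all 6 D538G E2 lists bound 354 (29.9%) and 1.72%. The choice of the leading region by its number of lists fixes the direction of these counts, which describe how widely it was bound and do not show how clusters are built. A peak in any wild-type DMSO list was found in 81.9% of leading regions and 54.7% of other members. Nearly all of these rested on the long list of clone 1 replicate 2, which bound 6127 members. Only 511 members had a peak in 2 or more wild-type DMSO lists.

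The short lists held mostly leading regions. For this count the leading region was chosen from the other lists, leaving out the list in question, and all ties were counted. In the wild-type DMSO lists with 50, 44 and 1080 peaks, 88.9%, 95.8% and 66.3% of the bound members led their cluster. The share was 68.8% both in the D538G DMSO list of clone 3 replicate 2 and in the D538G E2 list of clone 2 replicate 2. In the remaining lists it lay between 15.02% and 57.1%. Leading regions, ties included, made up 13.4% of all members. The share therefore moved with list length, and the part of the treatment in it was not tested.

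A few member regions were bound everywhere. Of the 15 kept regions with a peak in all 20 lists, 11 were members. Those at chr10:549538-554528, chr19:3386524-3390835 and chr1:15302098-15305363 were 4991, 4312 and 3266 bp wide. They lay in clusters of 11, 19 and 6 regions. Members were wider than other kept regions, with medians of 809 and 703 bp, and 874 members (8.23%) reached 2 kb against 1.94%. Both sets had a median of 6 lists. However, 2328 members (21.9%) had a peak in 10 or more lists against 14.6%, and 2022 (19.0%) in exactly 3 lists against 15.8%. Of the clusters, 285 had no region in 10 or more lists, 294 had 1 and 112 had at least 5.

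The cluster with the most such regions was chr16:85309149-85434061, with 18 of 36, chosen after its values were seen. The cluster at chr17:55927113-56013691 had 14 of 21, and its regions had a median of 15 lists. Wild-type DMSO lists bound 0, 11, 0 and 3 of the 21 regions, and wild-type E2 lists 14, 19, 13 and 15. D538G DMSO lists bound 15, 20, 11, 18, 15 and 10, and D538G E2 lists 15, 13, 18, 8, 16 and 21. The means were 16.7 ± 24.7% (SD, n = 4), 72.6 ± 12.5% (n = 4), 70.6 ± 18.4% (n = 6) and 72.2 ± 21.2% (n = 6). Thus the wild-type DMSO lists lay below all wild-type E2 lists, and only the long list reached the range of D538G DMSO. The cluster was also chosen for holding regions bound in all D538G DMSO lists and no wild-type DMSO list, so no test of that contrast is given. Both choices favoured low wild-type DMSO counts beside high counts elsewhere. The separation of wild-type E2 from wild-type DMSO is therefore a description too.

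Peaks in clusters ranked above other peaks in most lists. A region took the percentile of its strongest peak in a list. Members held more peaks per bound region in 18 of 20 lists, which was not adjusted for. The median percentile of bound members was higher than that of the other bound kept regions in 18 of 20 lists. The difference reached 19.9 points in wild-type DMSO clone 2 replicate 2. The wild-type DMSO lists of 50 and 44 peaks, counted among the 18, rest on 18 and 24 bound members. In wild-type DMSO clone 1 replicate 2 and D538G DMSO clone 2 replicate 2, the difference was -6.30 and -1.73 points. Among the 18 lists with more than 1000 peaks, the 1000 strongest peaks fell in members more often than all peaks did in 18 of 18. The shares of the 1000 strongest ranged from 32.0% to 58.4% over those lists. For the 40 strongest this held in 17 of 18, the exception being D538G DMSO clone 2 replicate 1, at 15%. Because the rule used these same lists and the members are wider, these shares are descriptions.

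**Figure D4:**
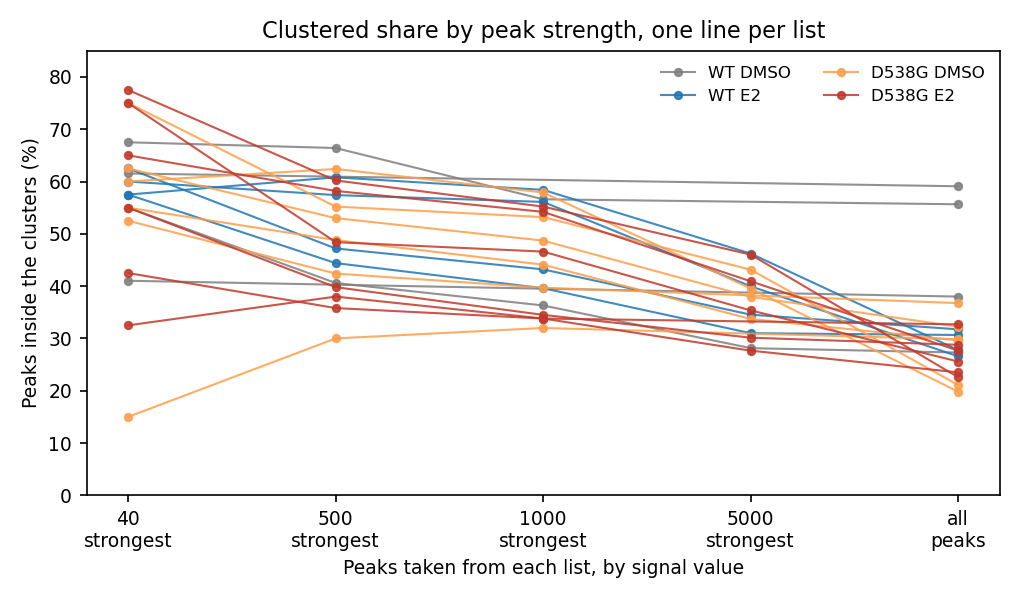
Share of peaks that fall in cluster members, in percent, for the strongest peaks of each list and for all its peaks, with a line for each list in group colours; lists shorter than a cutoff have no point there. In 18 of 18 lists with more than 1000 peaks the share is larger among the 1000 strongest than among all peaks.

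The share of all members bound in a list did not separate the groups. In wild type it was 0.169% and 57.7% (clone 1) and 0.226% and 4.89% (clone 2) with DMSO. With E2 it was 21.2% and 84.0% (clone 1) and 14.5% and 67.0% (clone 2). Each E2 list bound more members than the DMSO list of the same clone and replicate, although the group ranges overlapped through the 57.7% list. In D538G cells the share ran from 5.07% to 88.8% with DMSO, with a median of 29.0%, and from 5.47% to 82.8% with E2, with a median of 33.8%. These ranges lay almost on top of each other.

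The group means were 15.7 ± 28.0% for wild-type DMSO (SD, n = 4), 46.7 ± 34.1% for wild-type E2 (n = 4), 39.7 ± 34.7% for D538G DMSO (n = 6) and 36.8 ± 27.8% for D538G E2 (n = 6). The other kept regions gave means of 14.8%, 46.9%, 35.9% and 35.3%. E2 minus DMSO was 31.0 percentage points in wild type (two-sided exact permutation p = 0.171, 0.429 after adjustment over the 10 tests on these measures). In D538G it was -2.88 points (exact p = 0.881, adjusted 0.929). D538G minus wild type was 24.0 points under DMSO (exact p = 0.262, adjusted 0.437) and -9.88 points under E2 (exact p = 0.629, adjusted 0.786). The E2 effect differed between genotypes by -33.8 points (exact p = 0.333, adjusted 0.476). Without the library labelled D538G E2 clone 2 replicate 1, the contrasts that use it were -5.37, -12.6 and -42.4 points (exact p = 0.820, 0.595 and 0.238). None of the 5 contrasts exceeded the spread between libraries, and list length moved with the share in every group.

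**Figure D5:**
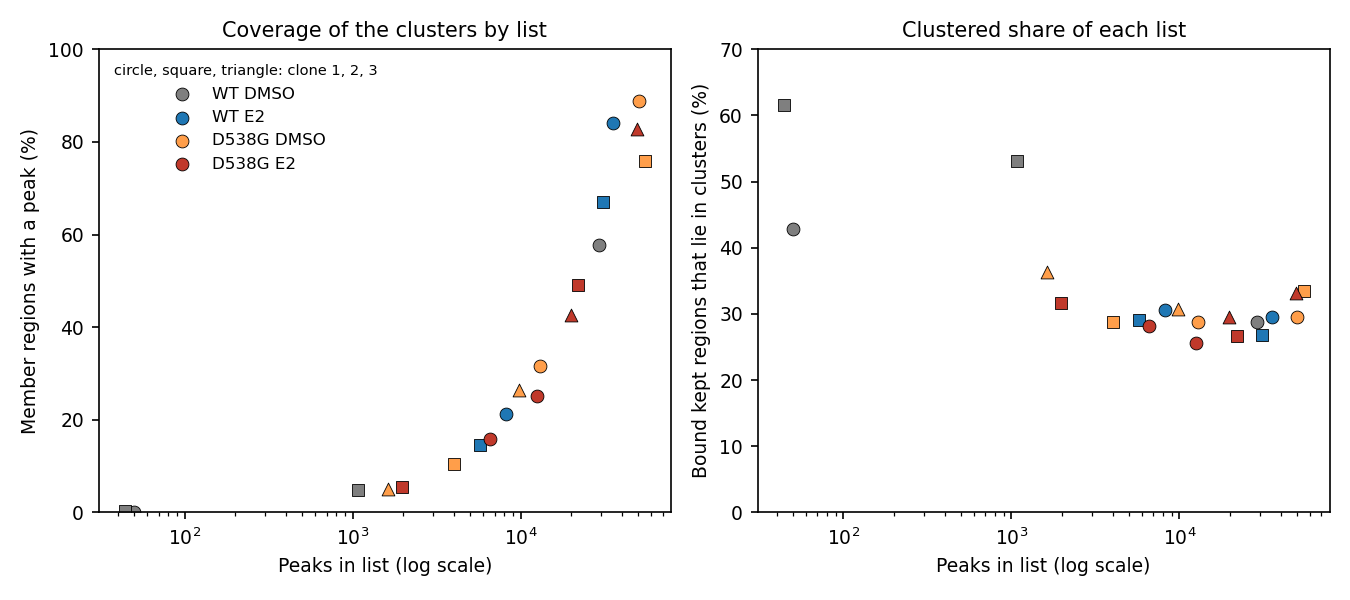
Share of the 10626 members bound and share of bound kept regions that are members, in percent, against peaks in the list (log scale). Each list is a point, with colours by group and markers by clone. Bound shares overlap between all groups, from 0.169% to 88.8%, while 3 of 4 wild-type DMSO lists lie above all other lists in the share that is clustered.

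The share of bound kept regions that are clustered was compared in the same way. Of the kept regions bound, 42.9% (95% Wilson interval 29.1% to 57.8%), 28.7%, 61.5% (45.9% to 75.1%) and 53.1% (49.98% to 56.2%) were members in the 4 wild-type DMSO lists, in the order given above. The intervals cover counting error only. The other 16 lists ranged from 25.6% to 36.3%. Thus 3 of the 4 wild-type DMSO lists lay above all of them, and these were also 3 of the 4 shortest lists of the 20 together with D538G DMSO clone 3 replicate 2, at 36.3%. Means were 46.6 ± 14.1% (n = 4), 29.0 ± 1.62% (wild-type E2, n = 4), 31.2 ± 3.06% (D538G DMSO, n = 6) and 29.1 ± 2.92% (D538G E2, n = 6). D538G minus wild type under DMSO was -15.3 points (exact p = 0.0333, adjusted 0.167). Without the long list of wild-type DMSO clone 1 replicate 2 it was -22.2 points (exact p = 0.0119, adjusted 0.0595). Within replicate number 1 it was -22.8 points (exact p = 0.1) and within replicate number 2 it was -7.83 points (exact p = 0.7), where 2 lists against 3 cannot go below 0.1. E2 minus DMSO was -17.6 points in wild type (exact p = 0.114, adjusted 0.381) and -2.09 points in D538G (exact p = 0.249, adjusted 0.437). The difference of the E2 effect between genotypes was 15.5 points (exact p = 0.0333, adjusted 0.167). No contrast passed the adjusted threshold of 0.05. With the 1000 strongest peaks of each list, E2 minus DMSO in wild type was 0.158 points and D538G minus wild type under DMSO was -3.58 points (exact p = 0.595). Without the library labelled D538G E2 clone 2 replicate 1, E2 minus DMSO in D538G was -1.52 points (exact p = 0.413) and the difference between genotypes 15.6 points (exact p = 0.0476, adjusted 0.238). Counted by peak instead of by kept region, the 40 strongest peaks of each list were also compared. The mean share that fell in members was 56.3 ± 11.4% in wild-type DMSO (n = 4) and 53.3 ± 20.4% in D538G DMSO (n = 6).

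Paired by clone and replicate, the D538G lists showed a small shift. The clustered share was lower with E2 than with DMSO in 6 of 6 pairs, by -3.07, -1.35, -2.04, -1.77, -1.24 and -3.09 points. The exact sign-flip test gave p = 0.0312, the smallest that 6 pairs allow, and 0.133 after adjustment. Without the pair of clone 2 replicate 1 it was lower in 5 of 5. The sign did not hold throughout: all pairs were lower in only 4 of 10 other settings. With peaks of −log10 p of at least 20 it was lower in 4 of 6 pairs, and with regions in at least 5 lists in 2 of 6. The 1000 and 40 strongest peaks gave 4 of 6 and 3 of 6. A gap under 6.25 kb and a minimum of 2 lists each gave 5 of 6. Without D538G E2 clone 3 replicate 2 it was lower in 3 of 5, and without D538G DMSO clone 2 replicate 2 in 4 of 5.

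Most members of the shorter list of a pair were also in the longer one, which in the longest lists held most members anyway. In wild type, clone 1 replicate 2 bound 8930 members with E2 and 6127 with DMSO, of which 5637 were bound in both. Clone 2 replicate 2 bound 7118 with E2 and 520 with DMSO, and 519 of the latter were also bound with E2. In D538G the longer list changed sides between pairs. Clone 3 replicate 2 bound 8802 with E2 and 539 with DMSO, and 499 in both. Clone 2 replicate 2 bound 581 with E2 and 8069 with DMSO, and 503 in both. Over the 10 pairs, from 71.7% to 99.8% of the shorter list's members were in the longer one. The longer list bound between 14.5% and 88.8% of all members. For wild-type clone 1 replicate 2 the overlap was 92.0% where the longer list bound 84.0% of all members, and for D538G clone 1 replicate 2 it was 95.6% against 88.8%. For wild-type clone 2 replicate 1 it was 95.8%, 23 of 24, against 14.5%.

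Members were also compared by the number of libraries of a group that bound them. Binding by 2 or more of the wild-type DMSO lists was found in 511 members (4.81%) against 1.45% of other kept regions. For wild-type E2 the counts were 7120 (67.0%) against 71.5%, for D538G DMSO 7774 (73.2%) against 67.3%, and for D538G E2 5988 (56.4%) against 65.1%. Of the members in at least 2 D538G DMSO lists, 5629 (72.4%) were also in at least 2 wild-type E2 lists, against 78.1% of the other kept regions. Members without any wild-type peak numbered 1049 (9.87%), close to the 9.84% of other kept regions. Those without any D538G peak numbered 35 (0.329% against 0.570%).

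No single region passed after adjustment. In each comparison, Fisher's exact test was run on the number of libraries with a peak wherever at least 2 of the compared lists had one, and 0 regions passed an adjusted p of 0.05 in the 4 comparisons. At an unadjusted p under 0.05, 466 of 7986 members tested (5.84%) were bound more often with E2 in wild type. The share over all regions tested was 9.34%. The gap between these shares rested on the long wild-type DMSO list of clone 1 replicate 2, without which 965 members (14.3%) passed against 14.3% of all regions. Without wild-type E2 clone 2 replicate 1 the count was 734 (9.22% against 13.1%). D538G bound 335 of 8787 members (3.81%) more often than wild type under DMSO, against 3.57% of all regions tested, a share near the background. The count was 564 (7.73% against 7.02%) without wild-type DMSO clone 1 replicate 2 and 763 (8.69% against 7.82%) without D538G DMSO clone 3 replicate 2. Under E2, D538G bound 27 of 9293 members more often (0.291%, background 0.325%) and 58 less often (0.624%, background 0.89%). In D538G, E2 gave more frequent binding than DMSO at 2 of 9855 members (background 0.02%), or 6 (0.0621% against 0.0698%) without the library labelled D538G E2 clone 2 replicate 1. These were chr9:139895135-139895789 and chr10:51554249-51554959, named after their values were seen. Each was bound in 6 D538G lists with E2 and 1 with DMSO, and in 3 wild-type lists with E2 and 0 with DMSO.

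Whole clusters were compared by the share of their regions bound in each list, with an exact permutation test at every locus. With E2, 1162 of 1178 clusters tested had a higher mean in wild type, with a median difference of 29.2 points against 25 over all loci. The share of all loci with a higher mean is not given, here or for the comparisons below. Such counts are therefore not read as particular to clusters. At unadjusted p under 0.05, 92 clusters (7.81%) were higher with E2, and in the same 92 the groups did not overlap. The background over all loci was 11.2% for both counts. Without wild-type DMSO clone 1 replicate 2 there were 146 (13.5%, against 14.6% of all loci). In D538G, 379 of 1183 clusters had a higher mean with E2, and the median difference was -3.33 points against 0. Only 2 clusters passed the unadjusted threshold (background 0.154%), and in 0 clusters did the groups part (background 0%). They were chr1:116255700-116272839 and chr21:16562959-16583074, both of 6 regions and named after their values were seen. The former had a mean of 58.3% of regions bound with E2 and 25% with DMSO in D538G, and 70.8% and 0% in wild type. After adjustment over all loci, 0 clusters passed in any of the 4 comparisons.

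Under DMSO, 1176 of 1183 clusters had a higher mean in D538G than in wild type, with a median difference of 23.3 points against 25 over all loci. Wild-type DMSO included the lists of 50, 44 and 1080 peaks, and list length was not adjusted for. At unadjusted p under 0.05, 73 (6.17%) were higher in D538G, against a background of 4.65%. This excess did not hold without wild-type DMSO clone 1 replicate 1 or clone 2 replicate 1, when 26 clusters (2.20%) passed against 2.88% and 2.87% of all loci. Without wild-type DMSO clone 2 replicate 2 there were 30 (2.54% against 3.05%), and without D538G DMSO clone 3 replicate 2 there were 121 (10.2% against 9.34%). In 23 (1.94%) the groups did not overlap, against 1.13%. Regions bound in 6 of 6 D538G DMSO lists and 0 of 4 wild-type DMSO lists numbered 74 among members (0.696%) against 188 of the other kept regions (0.710%), so they were no more frequent in clusters. They lay in 67 clusters, and 6 of these held more than 1. The cluster at chr22:45865635-45959519 held 3 in 22 regions. It and the next cluster were chosen for such regions, which fixes the direction of their difference under DMSO, and no test of it is given. Its wild-type DMSO lists bound 0, 3, 0 and 0 regions, and its D538G DMSO lists 8, 21, 3, 15, 8 and 3. The groups met at 3 regions, and the means differed by 40.5 points. The cluster at chr2:11621546-11682025, with 2 in 13 regions, was bound at 0, 3, 1 and 2 regions in wild-type DMSO lists and at 7, 11, 8, 6, 8 and 5 in D538G DMSO lists. Here the counts of the groups did not overlap, and the means differed by 46.2 points. With E2 this cluster had from 6 to 9 regions bound in wild type and from 7 to 12 in D538G.

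Under E2, 249 of 1183 clusters had a higher mean in D538G than in wild type and 911 a lower one. The median difference was -11.1 points against -16.7 over all loci. Unadjusted, 5 clusters were higher (0.423%, background 0.408%) and 10 lower (0.845%, background 1.07%). The 5 fell to 0 without wild-type E2 clone 1 replicate 1, clone 2 replicate 1 or clone 2 replicate 2. The shares of all loci were then 0.277%, 0.244% and 0.397%. Only 1 was left without wild-type E2 clone 1 replicate 2 (0.0943% against 0.463%), D538G E2 clone 1 replicate 1 (0.0863% against 0.411%) or D538G E2 clone 3 replicate 1 (0.0884% against 0.399%). Without the library labelled D538G E2 clone 2 replicate 1, 2 were higher (0.171% against 0.517%). There were 3 without D538G DMSO clone 1 replicate 2 (0.302% against 0.422%) or D538G E2 clone 3 replicate 2 (0.299% against 0.847%). Without D538G E2 clone 2 replicate 2 there were 18 (1.52% against 1.95%). The 10 lower clusters became 21 (1.86% against 2.93%) without D538G E2 clone 3 replicate 1 and 18 (1.80% against 1.37%) without D538G E2 clone 3 replicate 2. Without wild-type E2 clone 2 replicate 1 they were 17 (1.44% against 1.25%). Without wild-type E2 clone 1 replicate 2 and clone 2 replicate 2 they were 2 (0.189% against 0.795%) and 3 (0.264% against 0.629%). The groups did not overlap in 1 that was higher (background 0.0371%) and 2 that were lower (background 0.212%). The former, chr2:134319952-134358436, had 7 regions, none with a peak in any wild-type list under either treatment. They met the minimum of 3 lists through D538G lists alone, which fixed the direction of the difference, so it is no support for a contrast. D538G lists bound from 1 to 7 of them with E2 (mean 52.4%) and from 0 to 5 with DMSO (mean 23.8%). The latter were chr3:79966608-79989743 with 5 regions and chr4:4498597-4526697 with 7. In these the wild-type E2 lists bound all 5, and from 6 to 7, whereas D538G E2 lists bound from 1 to 4 and from 1 to 5. Also higher in D538G were chr7:36324971-36343792, chr8:22590563-22612939, chr9:138235610-138305040 and chr17:70171851-70184125. The last of these, with 5 regions, had no peak in any wild-type list either. Its regions were likewise kept through D538G lists alone, so its difference is no support either. At chr7:36324971-36343792, with 5 regions, no wild-type list bound more than 1 with E2 or any with DMSO. At chr9:138235610-138305040, with 20 regions, wild-type lists bound at most 4 with E2 and 2 with DMSO. Most regions of the former and many of the latter were thus kept through D538G lists alone. These differences are no support for a contrast either. All of these clusters were named after their values were seen, and none passed the adjusted threshold.

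Among the 508 clusters of at least 8 regions, D538G E2 was higher in 97 and lower in 407, with a median difference of -10.9 points. The 5 highest lay between 35.2 and 39.8 points. One of them was chr9:138235610-138305040, in which wild-type E2 lists bound 1, 4, 1 and 2 of 20 regions. D538G E2 lists bound 7, 4, 13, 3, 12 and 20, and D538G DMSO lists 8, 20, 5, 18, 7 and 3. Only the counts of 3 and 4 lay in the wild-type range. The difference under E2 was 39.2 points, and since it chose these clusters it carries no test. The first of the 5, chr17:71275881-71313756, and the fifth, chr17:71330988-71360516, lay near each other on chromosome 17. Wild-type E2 lists bound 0, 2, 0 and 1 of 9 regions in the former, and 0, 2, 0 and 2 of 9 in the latter. The 5 lowest lay between -42.7 and -38.6 points. At chr19:49046434-49092671 the wild-type E2 lists bound 8, 10, 6 and 10 of 10 regions, and the D538G E2 lists 3, 2, 6, 0, 8 and 7. At chr16:11397069-11457529 they bound 9, 10, 7 and 9 of 11, and 6, 2, 2, 1, 7 and 9. In both the groups overlapped.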

How the data were processed

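Each of the 20 precipitated libraries had a peak list in narrowPeak layout, called per library. Per the submitters' processing notes, Bowtie, MACS2 and build hg19 were used; versions, annotation and settings are not given in the sources used here. The authors gave each peak a signal value, used here to rank peaks within a list; its reference is not given in the labels, and only 4 lists name an input in their peak names. The deposited lists also held −log10 p values, of which the lowest was 10.0, and −log10 q values. The score column the authors deposited was not used. Read depth is unknown, and the number of libraries limits precision. The 2 input libraries, 5 peaks on the mitochondrial sequence and 30 on chromosome Y were not used. Genes, sequence motifs and sequences are not analysed here.

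Merging and chaining were done in Python 3.11.15 with pandas 2.3.3 and numpy 2.4.6, and checked against bedtools 2.31.1, which returned the same 93599 regions and 1183 clusters. A region or cluster share counts presence of a peak. Group contrasts used two-sided exact permutation tests (SciPy 1.17.1) on the share of members bound and on the share of bound kept regions that are members, adjusted by Benjamini-Hochberg over 10 tests. Regions were tested with Fisher's exact test and loci with exact permutation tests, adjusted over all tested. The region test was tested on simulated data: in each comparison, all 200 changed regions among 93599 passed unadjusted and 0 passed adjusted. With so few lists the smallest possible p is too large for 200 regions alone to pass adjustment. That outcome was therefore set by the design and does not show that unadjusted calls are sound. The data differed, with 2731 regions at unadjusted p under 0.05 for E2 in wild type. Region counts at unadjusted p are given as a description only. E2 and DMSO lists of a clone and replicate come from the same cell clone and were paired in an alternative fit with the replicate block. Genotype groups share only a replicate number. Alternatives changed the −log10 p minimum, gap, region minimum, list minimum, overlap, number of strongest peaks and libraries.

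Clusters named by rule were the 10 with the most regions, the 3 with most regions bound in 6 of 6 D538G DMSO and 0 of 4 wild-type DMSO lists, the 5 highest and 5 lowest in D538G minus wild type under E2 among those of at least 8 regions, the longest and the densest. The members, rules and tests were chosen with earlier results of these data known.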

Additional observations from a re-analysis of the deposited data

Results flagged for a closer look

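Dixon's test at the 95% level was applied to 7 measures in 4 groups of libraries, 28 combinations in all, of which chance marks about 1 in 20. It marked 3. Wild-type DMSO clone 1 replicate 2 bound 57.7% of the members, where the group median was 2.56%. The same library bound 5 or more regions in 557 clusters, where the group median was 2. In D538G E2 clone 2 replicate 1, the median signal percentile of bound members lay 13.9 points above that of other bound kept regions, against a group median of 4.70. These are values of single libraries, and their causes were not tested.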

How the results depend on the processing

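Across 340 alternatives to the 10 group contrasts, 317 kept direction and side of the threshold, and the smallest adjusted p of any was 0.0595. The other 23 changed sign without passing the threshold, and the cause was not tested. For the share of members bound, E2 minus DMSO in D538G became 0.794 with −log10 p of at least 20, 0.0188 with the 40 strongest peaks and 16.1 within replicate number 1. D538G minus wild type became -0.00314 under DMSO with the 40 strongest peaks and 21.0 under E2 within replicate number 1. For the clustered share of bound regions, E2 minus DMSO in wild type became 0.158 with the 1000 strongest peaks and 2.83 with the 40 strongest, and in D538G 4.74 with the 40 strongest. D538G minus wild type under E2 became -6.50 and -1.46 with the 1000 and 40 strongest, -0.365 with a gap under 25 kb, -0.248 with 3 or more regions, -0.0418 with 10 or more and -2.58 within replicate number 1. The genotype difference in the E2 effect became -2.91 with the 1000 strongest.

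Leaving out each library in turn, the bound-share contrasts ranged from 19.8 to 46.7 (E2 minus DMSO, wild type), from -10.6 to 7.56 (same, D538G), from 15.5 to 38.9 (genotype, DMSO), from -20.6 to 3.00 (genotype, E2) and from -52.5 to -20.0 (difference in E2 effect). The clustered-share contrasts ranged, in the same order, from -24.3 to -12.6, from -2.63 to -1.04, from -22.2 to -10.3, from -0.516 to 1.09 and from 10.5 to 22.5. The number of clusters ranged from 993 to 1183.

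Under the replicate block, the clustered share in D538G gave an exact p of 0.0312 (adjusted 0.133), the bound share in wild type an exact p of 0.125, and no call changed. Clusters numbered 860 with −log10 p of at least 20, 805 and 1493 with gaps under 6.25 and 25 kb, 3013 and 321 with at least 3 and 10 regions, and 1975 and 648 with at least 2 and 5 lists. Unadjusted calls moved with the settings. The number of members tested also changed with the gap and the list minimum. Member regions for E2 in wild type numbered 466 (5.84% against 9.34% of all regions). There were 16 with the 1000 strongest peaks. The shorter and longer gap gave 214 (4.68%) and 851 (6.79%), and at least 5 lists gave 290 (6.37%), each against 9.34%. Under the replicate block there were 0, where 4 pairs cannot go below 0.125. For D538G against wild type, member regions numbered 335 under DMSO (103, 184, 530, 217 and 180 in that order) and 85 under E2 (71, 39, 154, 43 and 37). Under DMSO the main share was 3.81%, with 3.64% and 3.90% for the shorter and longer gap and 4.71% for at least 5 lists. All regions gave 3.57% each time. Under E2, 0.291% were higher and 0.624% lower, against 0.325% and 0.89% of all regions in each of these settings. The other shares were 0.262% and 0.469% (shorter gap), 0.274% and 0.781% (longer gap) and 0.349% and 0.534% (at least 5 lists). Clusters numbered 92 for E2 in wild type (7.81% against 11.2% of all loci), and 13 with the 1000 strongest. For genotype under E2 there were 15, and 61 with the 1000 strongest. Of the clusters, 0.423% were higher and 0.845% lower among the 15, against 0.408% and 1.07% of all loci. Shares over all regions or loci are not given here for the 1000 strongest peaks or the replicate block. Without 1 library, member calls in D538G for E2 ranged from 2 to 29 (highest without D538G E2 clone 2 replicate 2), and its clusters from 0 to 17. The 29 were 0.294% against 0.949% of all regions, and the 17 were 1.44% against 2.27% of all loci. For genotype under E2 the members ranged from 60 to 179 and the clusters from 3 to 27, both highest without that list. At those highest counts, 1.28% of members were higher and 0.646% lower, against 1.49% and 0.896% of all regions. For clusters, 1.52% were higher and 0.761% lower, against 1.95% and 1.03% of all loci. The 60 members, without wild-type E2 clone 1 replicate 1, were 0.271% higher and 0.380% lower, against 0.326% and 0.602%. The clusters were lowest without wild-type E2 clone 1 replicate 2 or clone 2 replicate 2. Adjusted calls were 0 throughout. Read depth is unknown, so a site without a peak in a short list is not shown to be unbound.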
